A study of Mus musculus with 18 samples.

Results

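Day 4 of stretch-mediated skin expansion was examined in mouse back skin by comparing the control (CTRL) and the expanded (EXP) single-cell library of that day. The members are the cells of the 2 gene expression libraries labelled day 4, out of 10 in the series. After filtering they were 10346 of 45488 cells, of which 7073 came from the CTRL library and 3273 from the EXP library. Every mouse of both arms had surgery, in which the back skin was cut near the tail and forceps opened a tunnel under the skin towards the neck. In EXP mice a hydrogel that acts as an expander was placed in the tunnel near the neck and stitched in place. CTRL mice had the same cut and tunnel and received no expander, so the comparison is between surgery with an implanted hydrogel and surgery alone. Strain, age and sex are not given in the sources used here. Each arm held 4 mice, told apart by antibody hashtags, and live cells were sorted from their skin. The 4 mice of an arm went through 1 droplet reaction together. The arm and the reaction therefore cannot be told apart, and p-values measure the spread between mice within a reaction.

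Each mouse was marked with a DNA-barcoded antibody whose barcode is counted in a companion library. These barcodes are shown because every value per mouse rests on them, and the same 4 were used in both arms.
A0309 (mouse 1): tgcctatgaaacaag
A0310 (mouse 2): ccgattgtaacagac
A0311 (mouse 3): gcttaccgaattaac
A0312 (mouse 4): ctgcaaatataacgg

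Skin that is held under tension grows: keratinocytes of the basal layer divide, dermal fibroblasts lay down and remodel collagen, and vessels extend with the tissue. Inserting an implant also wounds the skin. In a wound, neutrophils and blood monocytes enter first, monocytes turn into macrophages, and resident γδ T cells of the skin make cytokines such as interleukin 17 and interleukin 22 that act on the epithelium. Fibroblasts near a wound make matricellular proteins such as tenascin C, which bind matrix and receptors without forming the main fibres, together with chemokines that draw neutrophils.

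The CTRL library held 8602 cell barcodes and 70858747 unique molecular identifiers (UMIs, 1 per captured RNA molecule), and the EXP library 4486 barcodes and 42053403 UMIs. More barcodes of the EXP library than of the CTRL library had over 10% mitochondrial UMIs, 23.4% against 12.5%. Kept cells had a median of 7963 UMIs in CTRL and 8723 in EXP. Of these cells, 62.5% in CTRL and 68.4% in EXP could be given to a mouse. That share was 96.2% and 98.4% for immune cells but 49.4% and 46.7% for other cells, so shares of classes were computed separately among immune and among non-immune cells. The 2 libraries had 12 barcodes in common, 9 of them among kept cells. A cell's mouse never differed between the 2 hashtag rules that were compared.

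Clusters of cells were named from marker genes, and a name ending in "-like" means only that. The markers of neutrophil-like, macrophage or monocyte-like and T cell-like cells were each highest in their own class in both arms for 9 of 9 genes. For fibroblast-like cells this held for 7 of 8 markers, for endothelial-like and dermal papilla-like cells for 6 of 8, and for basal keratinocyte-like cells for 5 of 8. It held for 3 of 10 dendritic cell markers and 3 of 8 Langerhans cell markers. Cluster 2, the main cluster of the dendritic-like class, held 0.7 of the dendritic cell markers and 0.667 of the macrophage or monocyte markers, a near tie settled by its leading genes. When the day 4 libraries were clustered alone the matching cluster held 0.889 of the macrophage or monocyte markers and 0.5 of the dendritic cell markers and stayed unnamed. The class also took in cluster 33, led by cell cycle genes such as Ube2c and Top2a. Of its cells on day 4, 63 of 102 in CTRL and 13 of 19 in EXP fell at finer clustering into a group in which no cell had a UMI of the leukocyte gene Ptprc. The cells called Langerhans-like were led by Ccl22, Cd207 and Ccr7, genes that dendritic cells on their way to lymph nodes also express. Unnamed clusters held 11.4% of the CTRL cells and 13.1% of the EXP cells.

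Among immune cells, EXP skin had a larger share of neutrophil-like cells and a smaller share of dendritic-like cells than CTRL skin. Neutrophil-like cells, the short-lived phagocytes that enter wounds first, were 2.26%, 0.542%, 0.348% and 0.249% of the immune cells in CTRL mice 1 to 4 and 29.5%, 15.5%, 7.01% and 26.1% in EXP mice 1 to 4. The lowest EXP mouse lay above the highest CTRL mouse, and the means were 0.849 ± 0.946% and 19.5 ± 10.3% (SD, n = 4 each, p = 0.0286 by exact permutation and 0.0971 when adjusted). Dendritic-like cells, which take up antigen and present it to T cells, were 30.7%, 47.5%, 45.6% and 40.4% in CTRL mice and 2.64%, 18.3%, 22.3% and 8.91% in EXP mice. Their ranges did not overlap either (41.0 ± 7.54% and 13.0 ± 8.91%, SD, n = 4 each, p = 0.0286 by exact permutation and 0.0971 when adjusted). Without cluster 33, an alternative chosen after seeing the data, the means were 37.7 ± 6.83% and 11.5 ± 8.16% (SD, n = 4 each, p = 0.0286 by exact permutation). Dendritic-like and macrophage or monocyte-like cells counted together, which does not rest on the near tie and was also chosen after seeing the data, averaged 73.0 ± 4.55% and 46.8 ± 8.37%, again with no overlap (SD, n = 4 each, p = 0.0286 by exact permutation and 0.0914 when adjusted). The lowest p that 4 mice against 4 can give in this two-sided exact test is 0.0286, and the adjustment is over 17 classes.

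Macrophage or monocyte-like cells made up 40.5%, 26.7%, 33.1% and 27.7% in CTRL mice and 48.4%, 37.8%, 20.4% and 28.4% in EXP mice, so the CTRL range lay within the EXP range. The difference in the macrophage or monocyte-like share was 1.76 percentage points, and it became -3.10 without EXP mouse 1. T cell-like cells averaged 9.20 ± 2.20% in CTRL and 17.6 ± 9.23% in EXP mice (SD, n = 4 each, p = 0.2 by exact permutation and 0.283 when adjusted), with overlapping ranges. Langerhans-like cells averaged 4.92 ± 0.812% and 5.14 ± 1.43% (SD, n = 4 each, p = 0.943 by exact permutation). The mixture inside this class differed between the whole libraries. At finer clustering cluster 40, which the marker lists named dendritic-like, held 69 of its 98 CTRL cells and 9 of its 66 EXP cells. Cluster 41, named Langerhans-like, held 29 and 57 cells.

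Among non-immune cells, the share of fibroblast-like cells, which make the collagen of the dermis, was 69.1%, 71.9%, 49.8% and 54.6% in CTRL mice and 9.43%, 16.6%, 12.4% and 9.33% in EXP mice. The lowest CTRL mouse was above the highest EXP mouse (61.4 ± 10.8% and 11.9 ± 3.41%, SD, n = 4 each, p = 0.0286 by exact permutation and 0.0971 when adjusted). Dermal papilla-like cells, the mesenchymal cells at the base of hair follicles, had shares of 0.884%, 0.781%, 1.45% and 0.722% in CTRL and 11.3%, 5.33%, 4.00% and 9.33% in EXP mice. All EXP mice lay above all CTRL mice (0.958 ± 0.332% and 7.49 ± 3.41%, SD, n = 4 each, p = 0.0286 by exact permutation and 0.0971 when adjusted). Lymphatic endothelial-like cells, which line the vessels that drain the skin, averaged 1.98 ± 0.629% and 5.90 ± 1.57% (SD, n = 4 each, p = 0.0286 by exact permutation and 0.0971 when adjusted), again with no overlap. Those shares rest on 16, 5, 10 and 22 cells in CTRL mice and 8, 9, 9 and 26 in EXP mice. In the whole libraries the class made up 2.57% and 4.90% of the non-immune cells, with 40.5% and 55.9% of its cells given to a mouse. Counting the unnamed clusters with fibroblast genes as fibroblast-like, which was decided after seeing the data, gave 73.5 ± 10.1% and 29.5 ± 4.26% (SD, n = 4 each, p = 0.0286 by exact permutation). Fewer of the dermal papilla-like cells could be given to a mouse, 7.72% in CTRL and 20.4% in EXP, and in the whole libraries they were 6.11% and 17.1% of the non-immune cells. Their shares per mouse rest on 6, 3, 9 and 6 cells in CTRL and 12, 9, 9 and 36 cells in EXP. Between the whole libraries the class markers Corin (56.3 to 8.94 CPM), Rspo3 (255 to 71.5 CPM), Alx4, Sox18, Crabp1, Hhip and Wif1 were lower in EXP. The marker Notum was higher (75.8 to 102 CPM).

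Basal keratinocyte-like cells carry genes of the dividing layer that the epidermis shares with the hair follicle. Cluster 6, led by Krt24, Krt15 and Lhx2, genes known from the hair follicle bulge, held 57.6% of them in CTRL and 55.6% in EXP. Cluster 9, led by Krt14, Krt5 and Ccl27a, held 42.4% and 44.4%. These are shares of whole libraries. At finer clustering the unnamed cluster 22, led by Cst6, Defb6 and Krt79, held 19.7% and 19.6% of the class. The unnamed cluster 30, led by Lhx2 and Hoxc13, held 21.2% and 16.3%, and cluster 42, named sebaceous-like, 1.89% and 6.34%. The class made up 3.24%, 1.3%, 7.56% and 5.66% of the non-immune cells in CTRL mice and 7.55%, 18.9%, 19.1% and 23.8% in EXP mice. EXP mouse 1 lay just below CTRL mouse 3 and the other EXP mice lay above every CTRL mouse (4.44 ± 2.74% and 17.4 ± 6.92%, SD, n = 4 each, p = 0.0571 by exact permutation and 0.139 when adjusted). Endothelial-like cells averaged 10.6 ± 4.85% in CTRL and 19.6 ± 6.53% in EXP mice (SD, n = 4 each, p = 0.0857 by exact permutation and 0.182 when adjusted). In the whole libraries they were 10.6% and 13.2% of the non-immune cells, and 52.0% and 62.2% of them could be given to a mouse. In all, 5 of the 17 classes had an unadjusted p under 0.05 and 0 passed after adjustment. An edgeR test on the numbers of cells, the alternative, passed 8 of 17 classes. It gave log2 fold changes of 4.33 for neutrophil-like, -2.36 for fibroblast-like, 2.90 for dermal papilla-like and 1.97 for basal keratinocyte-like cells. Shares within a compartment sum to 100%, so a larger share of 1 class and a smaller share of another cannot be told apart here, and cells per area of skin were not measured.

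**Figure D1:**
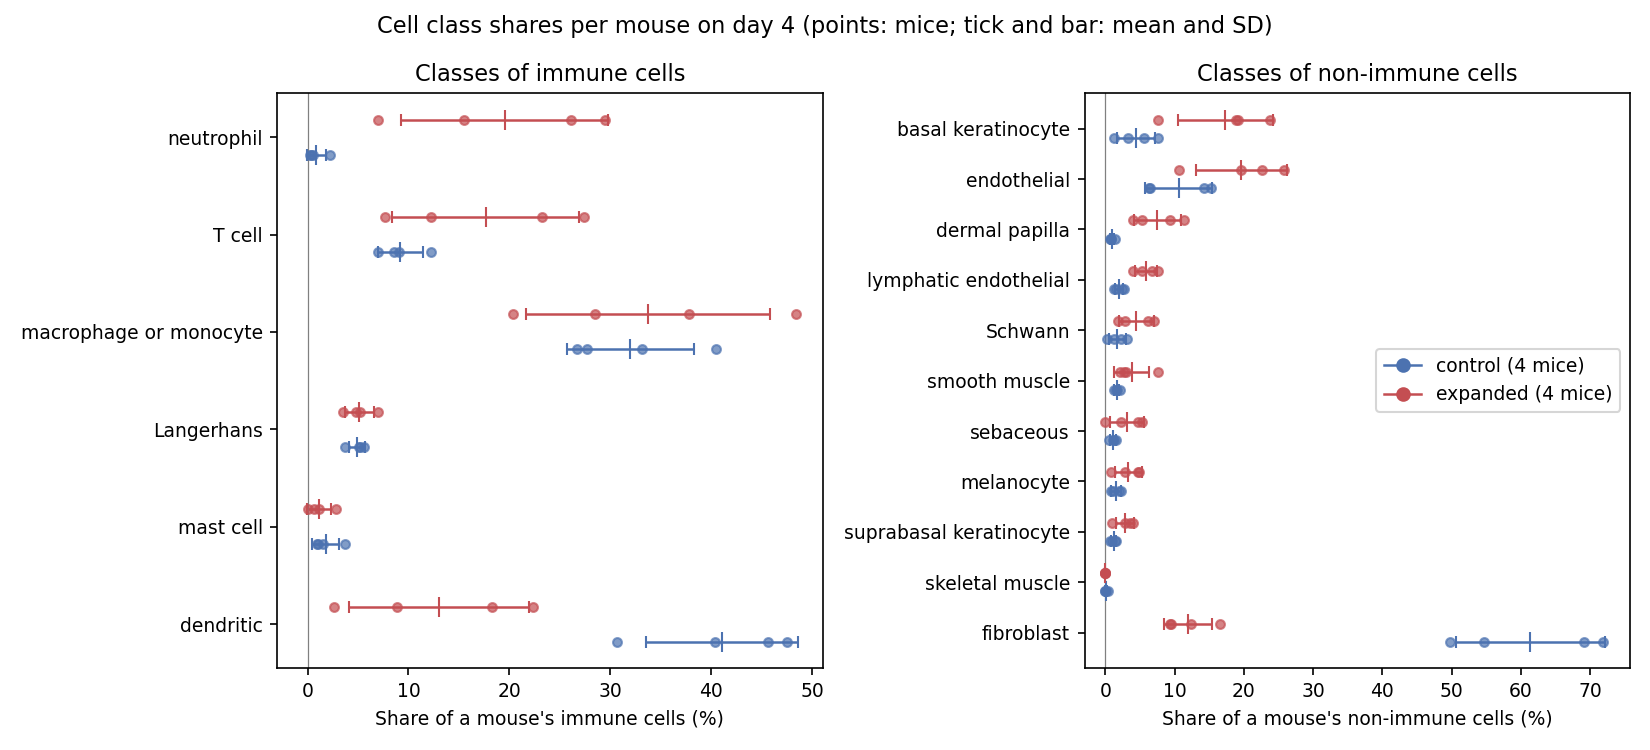
Share of each class among a mouse's immune cells (left) and non-immune cells (right) on day 4, in percent; each point is 1 mouse, and the tick and bar are the mean and SD of the 4 CTRL (blue) and 4 EXP (red) mice. Neutrophil, dendritic, fibroblast, dermal papilla and lymphatic endothelial shares do not overlap between the arms, while the macrophage or monocyte shares do.

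The kinds of cells inside a class also differed between the libraries. Macrophage or monocyte-like cells fell into 2 clusters. Cluster 4, led by the complement genes C1qa, C1qb and C1qc with Ccl8, Ccl24, Cd209f and Folr2, genes typical of resident skin macrophages, held 569 of 625 CTRL cells (91.0%) and 42 of 503 EXP cells (8.35%). Cluster 3, led by Chil3, Msr1, Arg1, Ly6c2 and Plac8, genes of blood monocytes and of macrophages newly made from them, held 8.96% and 91.7%. Every gene difference within this class therefore compares a class made mostly of cluster 4 with a class made mostly of cluster 3. These cluster shares come from 1 library per arm, have no replicate test, and rest on genes that also differ between the arms.

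Fibroblast-like cells were spread over 6 clusters. In CTRL, cluster 0, led by the collagen genes Col1a1 and Col1a2 and the long RNAs Meg3, Rian and Mirg, held 26.2% of them, against 1.99% in EXP. Cluster 11, led by Ccl19, C3 and C4b, held 24.1% and 7.96%. The shares of cluster 7, led by Postn, Lrrc15 and Tnn, were 19.3% and 32.3%, and those of cluster 5, led by Igfbp2, Mme, Wnt5a and Grem1, were 18.6% and 35.8%. Cluster 28, led by Apod and Ccl11, held 2.30% and 19.4%. In T cell-like cells the γδ T cell cluster 16, led by the receptor genes Trdc and Trdv4, held 35.9% of CTRL and 48.6% of EXP cells. Cluster 17, led by Il17a and Il17f, held 34.8% and 30.5%, and cluster 27, led by Cd8a, 29.3% and 20.95%.

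**Figure D2:**
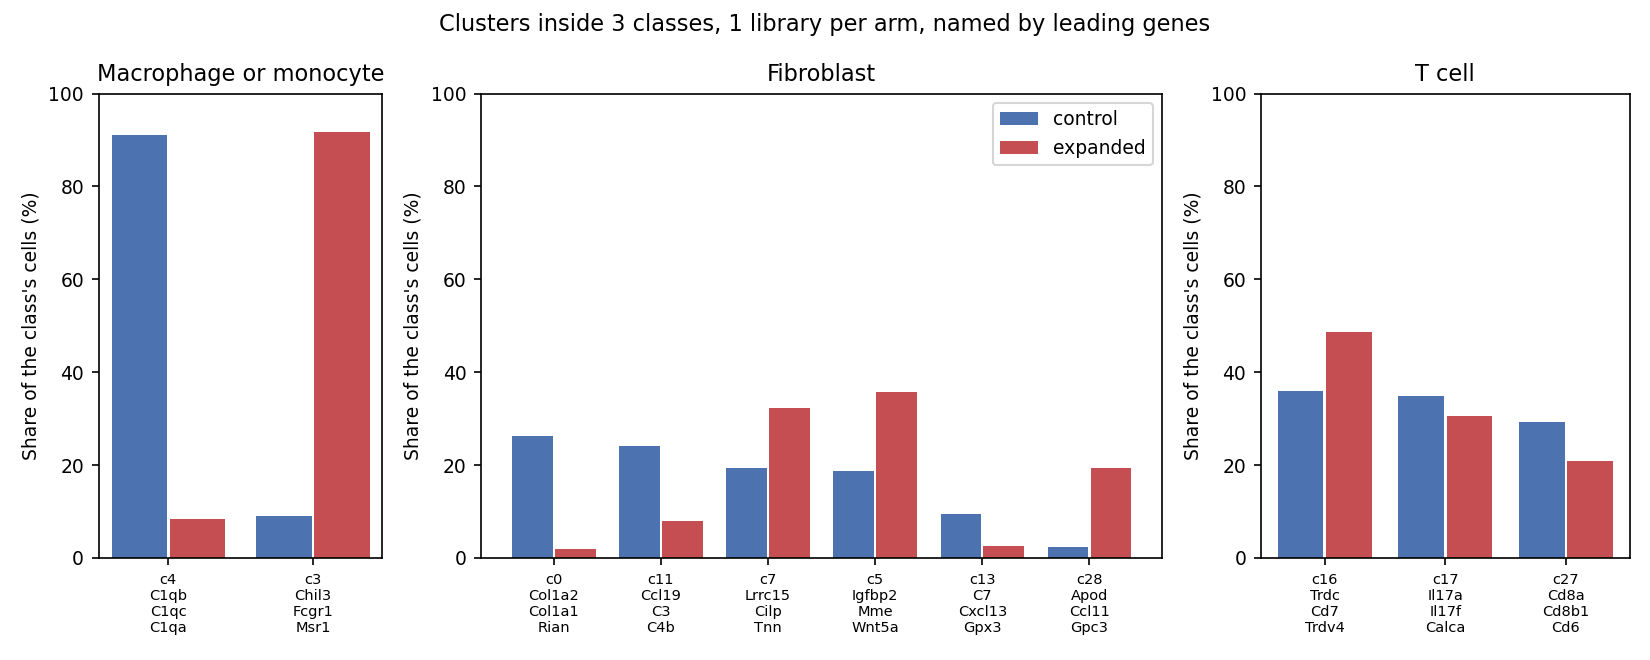
Percent of each class's cells that fell in each of its clusters in the CTRL library (blue bars) and the EXP library (red bars), for macrophage or monocyte-like, fibroblast-like and T cell-like cells; there is 1 library per arm and no error bar. Macrophage or monocyte-like cells were 91.0% cluster 4 in CTRL and 91.7% cluster 3 in EXP.

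In macrophage or monocyte-like cells, monocyte genes rose and genes of resident macrophages fell. Counts were summed over the cells of each class in each mouse and are given as CPM, the counts scaled to the size of that sum. Of 7073 genes tested over 4 mice of each arm, 1860 were called at an adjusted p of at most 0.05 (26.3%), 871 higher (12.3%) and 989 lower (14.0%) in EXP. Ranges that did not overlap between the arms were found for 25.4% of the tested genes. Of the 12 tested monocyte genes 9 rose and 0 fell, with a median log2 fold change of 1.81 against 0.02 over all tested genes. Chil3, a chitinase-like protein secreted by monocytes and neutrophils, stood at 6.29, 14.6, 82.1 and 42.7 CPM in the control mice and 469, 720.3, 147 and 629 CPM in the expanded mice. Its ranges did not overlap (log2 change of 4.01 with an SE of 0.86 by edgeR, adjusted p = 0.0167), and the call ended when CTRL mouse 2 was left out. Ly6c2, which marks inflammatory monocytes, rose from 42.5 to 255 CPM, the proteoglycan gene Vcan from 66.6 to 426 CPM, and the monocyte chemokine receptor gene Ccr2 from 199.8 to 416 CPM. The Vcan call also ended without CTRL mouse 2. Inhba, a subunit of activin, rose from 27.6 to 384 CPM (log2 change of 3.82 with an SE of 0.38 by edgeR, adjusted p = 0.000183).

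The Cd209 genes, which encode C-type lectins of resident macrophages and dendritic cells, led the genes that fell. Cd209f stood at 582, 238, 286 and 278 CPM in the CTRL mice and had 0 counts in all 4 EXP mice, at least 648-fold lower when set against 3 counts over the group. Cd209g was at least 368-fold lower by the same measure. Cd209b had 529 counts in CTRL and 1 in EXP, a 782-fold ratio with a counting interval of 140 to 30958. Cd209d stood at 889, 513, 589 and 459 CPM in the control mice and 2.62, 28.6, 9.38 and 17.6 CPM in the expanded mice, with no overlap (log2 change of -5.40 with an SE of 0.64 by edgeR, adjusted p = 0.00128). Near-identical copies exist among the Cd209 genes, so how counts were split among them is uncertain. Retnla, a marker of alternative activation that was picked out after its values were seen, went from 804 ± 639 CPM (SD, n = 4) to 0 counts without passing the test (edgeR, adjusted p = 0.0505).

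The genes of the alternative activation list, only some of which interleukin 4 induces in macrophages, gave 6 lower and 1 higher of 9 tested. The lower ones were Ccl24, Mgl2, Ear2, Clec10a, Folr2 and Cd163, and the higher one was Chil3. Arg1, also in the list, was not among the tested genes. It had a UMI in 2 of 625 CTRL cells (0.32%) and 86 of 503 EXP cells (17.1%), and in 0 cells of EXP mouse 3. The EXP cells were deeper, with a median of 10624 UMIs against 6554. Ccl24, a chemokine for eosinophils, fell from 602 to 37.7 CPM. Of 9 CC chemokines that recruit monocytes, 5 fell and 0 rose. Ccl8 stood at 30684, 19636, 16457 and 9901 CPM in the control mice and 2132, 3421, 5689.9 and 2886 CPM in the expanded mice, and every EXP mouse was below every CTRL mouse (log2 change of -2.44 with an SE of 0.45 by edgeR, adjusted p = 0.00923). Ccl2 fell from 6172 to 1246 CPM. Of 10 complement genes 7 fell, among them C1qa, a chain of the first complement component, from 2499 to 498 CPM.

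Genes of sugar breakdown (glycolysis) and of the response to low oxygen (hypoxia) were taken as 1 list. Of its 15 tested genes 12 rose in this class, Bnip3 and Vegfa among them, and 0 fell (median log2 fold change 1.04). Gapdh, a glycolytic enzyme, stood at 433, 526, 611 and 550.5 CPM in the control mice and 1828, 1324, 1114 and 1758 CPM in the expanded mice, with no overlap (log2 change of 1.51 with an SE of 0.16 by edgeR, adjusted p = 2.36e-05). Pkm, which catalyses the last step of glycolysis, rose from 327 to 978 CPM, and the lactate exporter gene Slc16a3 had a log2 fold change of 1.61. Among 14 lipid handling genes 4 rose (Fabp5, Lgals3, Gpnmb and Cd9) and 3 fell (Apoe, Pltp and Abca1). The fatty acid binding protein gene Fabp5 rose from 1167 to 6667 CPM (log2 change of 2.52 with an SE of 0.19 by edgeR, adjusted p = 4.98e-06). Of 14 genes of antigen presentation by MHC class I, 6 fell, and the class I heavy chain gene H2-K1 went from 1727 to 621 CPM. Of 11 interferon-γ-induced GTPases, which act against microbes inside cells, 6 fell.

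Markers of other cells moved with these values. The summed level of 8 fibroblast markers in the macrophage or monocyte-like sums ran from 1184 to 3852 CPM in CTRL and from 71.5 to 312 CPM in EXP mice, and all 5 that could be tested were lower in EXP. Summed neutrophil markers ran from 54.7 to 107 CPM in CTRL and from 182 to 463 CPM in EXP, and 2 of the 4 tested were higher. Those 2 were S100a8 and S100a9. Retnlg was at 0 in CTRL mice and had counts in EXP mice. Ly6g, a defining neutrophil marker, was at 0 in both arms, and its mean in the neutrophil-like cells of EXP mice was only 84.0 CPM. Summed basal keratinocyte markers ran from 23.7 to 60.1 CPM in CTRL mice and stood at 41.6, 64.1, 1899 and 60.7 CPM in EXP mice 1 to 4, and the 1 tested, Krt14, was higher. Keratinocytes also express Fabp5, and the part of their RNA in its value was not tested. Of 8 endothelial markers the 1 tested was higher. Of 11 heat shock genes 8 were lower in EXP, and of 12 genes known to respond to tissue digestion 5 were lower. The part of these in the differences was not tested. When cells were thinned to 2000 UMIs the count of called genes was 808.

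In T cell-like cells few genes passed, and Il22 and its near-identical copy Iltifb rose most. Over 4 mice of each arm, 11 of 3382 genes were called (0.325%), 4 higher (0.118%) and 7 lower (0.207%) in EXP, while 351 had an unadjusted p under 0.05. For 7.01% of the genes the ranges of the arms did not overlap. Il22 (ENSMUSG00000074695, GRCm38 chromosome 10, 118204942 to 118210047, plus strand) encodes a cytokine that acts on epithelial cells and not on immune cells. It stood at 87.1, 30.2, 44.3 and 30.5 CPM in the control mice and 3834, 2655, 5462 and 2768 CPM in the expanded mice. The lowest EXP mouse was far above the highest CTRL mouse (log2 change of 6.20 with an SE of 0.37 by edgeR, adjusted p = 7.58e-06), and the call held without each mouse in turn. Iltifb, its neighbour on the same chromosome, also passed, from 5.91 to 478 CPM, and its share of the Il22 reads is uncertain. Il17f, which encodes an interleukin 17 chain that acts on keratinocytes and fibroblasts, stood at 756, 139, 266 and 420.5 CPM in the control mice and 2445, 3185, 5031 and 3380.0 CPM in the expanded mice, with no overlap (log2 change of 3.11 with an SE of 0.46 by edgeR, adjusted p = 0.0351). That call ended without CTRL mouse 3, CTRL mouse 4, EXP mouse 2 or EXP mouse 3.

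Il17a, the other main interleukin 17 gene, did not pass at 947, 121, 753 and 536 CPM in the control mice and 1475, 2989, 2254 and 2714 CPM in the expanded mice (log2 change of 2.02 with an SE of 0.51 by edgeR, adjusted p = 0.233), and its ranges did not overlap. The γδ receptor gene Trdc did not pass either (log2 change of -0.36 with an SE of 0.32 by edgeR, adjusted p = 0.778). In the EXP library 80.1% of Il22 UMIs came from cluster 17 and 18.2% from cluster 27, and 90.7% of Il17f UMIs came from cluster 17. Few cells carried them: Il22 UMIs were found in 7 of 181 CTRL cells (3.87%) and 25 of 210 EXP cells (11.9%), against 0.0164% and 0.531% of cells of other classes. The EXP T cell-like cells were also deeper, with a median of 5377 UMIs against 3539, so these shares set no order, and 1 EXP cell held 27.7% of the Il22 counts.

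The fourth gene that rose in T cell-like cells was Rbm3, an RNA-binding protein known for its induction by cold, at 1017, 623, 842 and 1103 CPM in the control mice and 2095, 1870.2, 2335 and 1919.9 CPM in the expanded mice (log2 change of 1.19 with an SE of 0.18 by edgeR, adjusted p = 0.0133); without EXP mouse 3 its call ended. Of the 7 lower genes, Col1a1, Col1a2, Lum, Tnfaip6 and Ccl8 stood at under 0.1 of the level of the class where they were highest, Col1a1 going from 449 to 48.5 CPM. Fibroblast markers summed to between 2005 and 2263 CPM in the CTRL and between 98.2 and 1220 CPM in the EXP T cell-like sums, and their part in those 5 genes was not tested. The remaining lower genes were Kcnn4, a potassium channel gene whose call ended whenever a single mouse was left out, and Gm42418. The number of calls was 30 with DESeq2. It was 5 without CTRL mouse 2, 7 without CTRL mouse 3, 4 without CTRL mouse 4, 5 without EXP mouse 2 and 3 without EXP mouse 3.

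**Figure D3:**
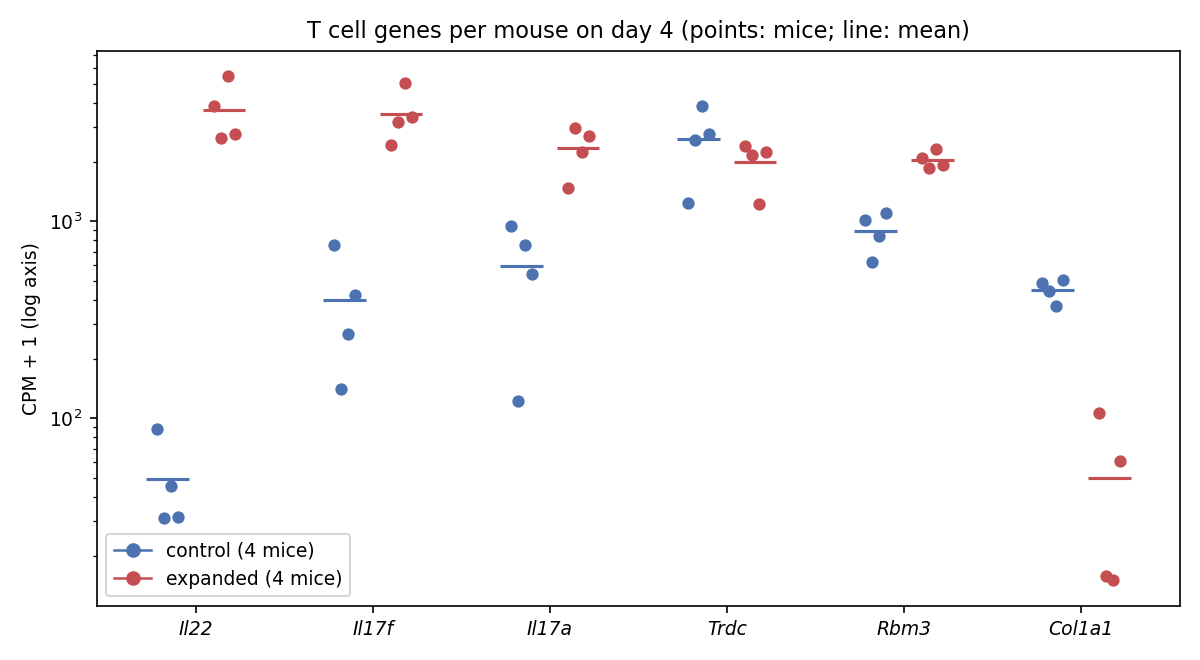
Level of 6 genes in the T cell-like cells of each mouse, as CPM + 1 on a log axis, with CTRL mice in blue and EXP mice in red (4 points each). Il22, Il17f and Rbm3 were higher and Col1a1 lower in every EXP mouse than in every CTRL mouse, whereas the Trdc points overlap.

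In fibroblast-like cells, genes of the main collagen fibres fell, while tenascin C and a few other matrix genes rose. Of 10499 genes tested, 1478 were called (14.1%), 687 higher (6.54%) and 791 lower (7.53%) in EXP. With these few mice, 29.0% of the genes had ranges that did not overlap. EXP mouse 1 had fewer than 20 cells of this class and was left out, so 4 CTRL mice with 276 to 469 cells each were set against 3 EXP mice with 28 to 36. Col1a1, a chain of type I collagen, stood at 38915, 39925, 35015 and 39599 CPM in the control mice and 13382, 14295 and 7998 CPM in the expanded mice. The highest EXP mouse was below the lowest CTRL mouse (log2 change of -1.69 with an SE of 0.19 by edgeR, adjusted p = 0.000201). Of 14 dermal collagen genes 6 fell (Col1a1, Col1a2, Col3a1, Col5a1, Col5a2 and Col15a1), 1 rose (Col12a1) and 7 were not called, with a median log2 fold change of -0.05 against -0.01 over all genes. Col3a1 fell from 30952 to 11409 CPM, and Col12a1, whose product sits on the surface of collagen fibrils, rose from 10.6 to 176 CPM.

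The genes that process collagen gave 4 lower and 0 higher of 12, the prolyl hydroxylases P4ha1 and P4ha2, the collagen chaperone gene Serpinh1 and the procollagen protease gene Adamts2. Small leucine-rich proteoglycans, which space collagen fibrils, gave 4 lower and 0 higher of 9, with log2 fold changes of -0.92 for Dcn and -0.83 for Lum. Elastic fibre genes went both ways, with 7 of 15 lower, among them Fbn1 and Mfap4, and 3 higher (Efemp2, Fbln5 and Mfap5). Among 12 matricellular genes Tnc, Thbs4 and Ccn2 rose and Tnxb and Sparc fell. Tnc, the tenascin C gene (GRCm38 chromosome 4, 63959785 to 64047015, minus strand), stood at 64.4, 111, 28.9 and 60.6 CPM in the control mice and 1815, 1100.1 and 848 CPM in the expanded mice. Every EXP mouse was above every CTRL mouse (log2 change of 4.24 with an SE of 0.50 by edgeR, adjusted p = 0.00377). Thbs4, a thrombospondin of tendon and injured tissue, rose from 2.89 to 74.8 CPM.

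Timp1, an inhibitor of matrix-degrading proteases, stood at 184, 217, 157 and 142 CPM in the control mice and 776, 588 and 747 CPM in the expanded mice, with no overlap (log2 change of 2.01 with an SE of 0.17 by edgeR, adjusted p = 3.73e-05). Of 8 hyaluronan genes Has1 and Has2, which make this large sugar polymer, fell, and Cemip, needed for its breakdown, rose. Has1 stood at 1305, 1376, 1414 and 824 CPM in the control mice and 232, 294 and 146 CPM in the expanded mice, with all EXP mice below all CTRL mice (log2 change of -2.46 with an SE of 0.27 by edgeR, adjusted p = 0.000354). The largest fall among genes named by rank was that of Penk, the precursor of enkephalin peptides, at 117, 108, 105 and 139 CPM in the control mice and 1.59, 4.00 and 4.43 CPM in the expanded mice (log2 change of -5.12 with an SE of 0.28 by edgeR, adjusted p = 3.17e-06). Clec3b and Pi16, both typical of fibroblasts of the fascia and the outer coat of vessels, went from 846 to 87.7 CPM and from 226 to 39.5 CPM. The Clec3b call ended whenever CTRL mouse 1, 2, 3 or 4 or EXP mouse 2 was left out. Spon2, Opcml, Fndc1, Kazald1, Mirg, Sema3b, Scg3 and the complement gene C7 were the other named genes that fell, with log2 fold changes from -4.05 to -2.60.

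Some genes for signals to other cells rose in the fibroblast-like class. Of 5 monocyte-recruiting CC chemokines, 5 interferon-induced or homeostatic CXC chemokines and 9 genes of the interleukin 6 family tested there, 0 were called. Both CXC chemokines tested that draw neutrophils through the receptor CXCR2 were higher. Cxcl1 stood at 301, 345, 183 and 277 CPM in the control mice and 1756, 1258 and 3430.2 CPM in the expanded mice, with no overlap (log2 change of 2.96 with an SE of 0.37 by edgeR, adjusted p = 0.0025). Cxcl2 stood at 83.5, 82.8, 32.8 and 93.2 CPM in the control mice and 905, 352 and 1056 CPM in the expanded mice (log2 change of 3.40 with an SE of 0.50 by edgeR, adjusted p = 0.00842), and its EXP level was 0.0099 of that in neutrophil-like cells. Ereg, a ligand of the EGF receptor, rose from 3.23 to 215 CPM, and the acute phase gene Saa1 from 1.62 to 108 CPM. The Ereg call ended when any single mouse was left out, and the Saa1 call ended when any 1 of the CTRL mice was. S100a8 and S100a9 were also called higher, at about 0.0015 of their level in neutrophil-like cells, and they were 2 of the 3 neutrophil markers tested. The third, Il1r2, a decoy receptor for interleukin 1, fell from 273 to 81.2 CPM. It made up most of the summed neutrophil markers, which ran from 186 to 318 CPM in CTRL and from 69.3 to 135 CPM in EXP. Ly6g and Retnlg were at 0 in both arms.

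The promoters of Cxcl1 and Cxcl2 are shown because both genes rose and both windows hold the same κB motif, the letters bound by NF-κB. They run from 250 bases before to 50 after the start in RefSeq GRCm38.p6, at chr5:90890995-90891294 (plus strand) and chr5:90903649-90903948 (plus strand), with the match in capitals. The search on both strands was for GGGA, any base, then TTTCC, which 104 of 27025 promoters of this length hold (0.385%). A match is a description of the letters and not a measured binding site, and a part of NF-κB in the rise was not tested. Of 5 genes of the neutrophil-recruiting CXC chemokine list with a promoter at hand, 3 held a match. Of 12 NF-κB feedback genes tested in fibroblast-like cells 0 were called, with a median log2 fold change of -0.14.
Cxcl1: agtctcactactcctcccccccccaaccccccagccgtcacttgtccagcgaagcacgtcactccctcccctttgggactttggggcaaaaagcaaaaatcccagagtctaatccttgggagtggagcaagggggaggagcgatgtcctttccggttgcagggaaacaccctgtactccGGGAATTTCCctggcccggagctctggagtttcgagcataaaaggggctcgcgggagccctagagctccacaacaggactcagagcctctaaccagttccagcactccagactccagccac
Cxcl2: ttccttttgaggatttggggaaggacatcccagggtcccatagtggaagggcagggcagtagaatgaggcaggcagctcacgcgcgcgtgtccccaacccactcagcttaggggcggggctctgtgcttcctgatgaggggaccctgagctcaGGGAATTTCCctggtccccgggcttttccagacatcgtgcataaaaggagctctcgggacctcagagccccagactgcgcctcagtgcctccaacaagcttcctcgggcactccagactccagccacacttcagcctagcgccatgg

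Genes of cholesterol synthesis rose as a group in fibroblast-like cells, 9 higher and 0 lower of 16 tested, with a median log2 fold change of 1.40. Idi1, an isomerase early in the pathway, stood at 13.6, 16.5, 8.43 and 13.8 CPM in the control mice and 73.2, 96.0 and 67.9 CPM in the expanded mice, with no overlap (log2 change of 2.57 with an SE of 0.22 by edgeR, adjusted p = 4.2e-05). Sqle, the squalene epoxidase gene, rose from 6.52 to 43.5 CPM and Hmgcs1, which makes the pathway's HMG-CoA, from 48.7 to 135 CPM. Genes of the actin cytoskeleton that serum response factor drives gave 6 higher and 0 lower of 16 (Actn1, Cnn2, Tpm1, Zyx, Actb and Flna), with Actn1 going from 8.12 to 45.8 CPM. The respiratory chain gave 6 higher and 0 lower of 16. Of 9 myofibroblast genes Runx1 and Cdh11 rose and Cthrc1 fell, and of 9 targets of YAP, a regulator that responds to stretch, 1 rose (Ccn2) and 0 fell.

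Crabp1, which binds retinoic acid and is high in dermal papilla and neonatal dermis, rose from 86.8 ± 33.0 CPM (SD, n = 4) to 1211 ± 231 CPM (SD, n = 3), with no overlap (log2 change of 3.80 with an SE of 0.28 by edgeR, adjusted p = 5.21e-05). Rgs16, Col8a1, Prg4, Fcgr2b, Chchd10 and Gpc1 were the other named genes that rose, with log2 fold changes from 3.21 to 4.93. Fcgr2b encodes a receptor for antibodies known from immune cells. Macrophage or monocyte markers in the fibroblast-like sums ran from 84.3 to 123 CPM in CTRL and from 31.0 to 480.0 CPM in EXP mice, and their part in the Fcgr2b value was not tested. Without CTRL mouse 1 or CTRL mouse 4 the number of called genes was 944 or 951, and in cells thinned to 2000 UMIs it was 340. The clusters that held most fibroblast-like cells differed between the arms, as given above, so these values compare different mixtures of clusters. Those cluster shares were of whole libraries, and the tested cells, those given to a mouse, were mixed otherwise. Cluster 11 held 194, 85, 106 and 155 of the 469, 276, 310 and 454 cells of CTRL mice 1 to 4. In EXP mice 2 to 4 it held 7, 8 and 1 of 28, 28 and 36 cells. Cluster 7 held 39, 27, 21 and 49 cells in these CTRL mice and 6, 5 and 11 in these EXP mice. Of 12 heat shock genes 4 fell and 1 rose, and of 12 genes known to respond to tissue digestion 2 fell, Hspa1a and Atf3. The part of these in the differences was not tested.

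In endothelial-like cells most of the tested genes that type I interferon induces fell. Of 5974 genes tested over 4 mice of each arm, 341 were called (5.71%), 128 higher (2.14%) and 213 lower (3.57%) in EXP. The ranges of the arms were apart for 13.2% of the genes. Of 11 tested genes of the type I interferon response 10 fell and 0 rose, with a median log2 fold change of -2.03 against 0.01 over all genes. Rsad2, which encodes the antiviral enzyme viperin (GRCm38 chromosome 12, 26442746 to 26456452, minus strand), stood at 227, 131, 136 and 257 CPM in the control mice and 3.77, 6.38, 8.06 and 24.2 CPM in the expanded mice. The highest EXP mouse was below the lowest CTRL mouse (log2 change of -4.21 with an SE of 0.40 by edgeR, adjusted p = 9.91e-05). Ifit1, whose product binds foreign RNA, stood at 128, 56.1, 93.8 and 70.5 CPM in the control mice and 7.55, 6.38, 17.5 and 19.8 CPM in the expanded mice, again with no overlap (log2 change of -2.73 with an SE of 0.33 by edgeR, adjusted p = 9.91e-05). The other genes that fell were Ifit2, Ifit3, Ifi44, Ifi204, Irf7, Oasl2, Xaf1 and Bst2, and Isg15 did not pass (log2 fold change -2.03, edgeR, adjusted p = 0.0819).

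Of 12 interferon-γ-induced GTPases 6 fell and 0 rose, and of 13 genes of MHC class I presentation 7 fell and 0 rose. The GTPase gene Igtp went from 127 ± 46.8 to 24.2 ± 13.6 CPM (SD, n = 4 each, log2 change of -2.41 with an SE of 0.35 by edgeR, adjusted p = 0.00198). Cxcl10, a chemokine for T cells that interferons induce, stood at 357, 74.8, 199.6 and 438 CPM in the control mice and 1.89, 6.38, 13.4 and 39.6 CPM in the expanded mice, with no overlap (log2 change of -4.21 with an SE of 0.81 by edgeR, adjusted p = 0.0369). Its call ended whenever CTRL mouse 1, 3 or 4 or EXP mouse 1, 2 or 3 was left out. By comparison, 0 of 11 type I interferon genes passed in dendritic-like cells, 1 of 13 rose and 0 fell in macrophage or monocyte-like cells, and 1 of 11 fell in fibroblast-like cells. The difference between these classes was not tested.

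The promoters of Rsad2, Ifit1 and Ifit3 are shown because these genes fell together and match the letters of the interferon-stimulated response element (ISRE), here GAAA, any 2 bases and GAAA, or TTTC, any 2 bases and TTTC on the other strand, given in capitals. They are RefSeq GRCm38.p6 windows from 250 bases before to 50 after the start, at chr12:26456403-26456702 (minus strand), chr19:34640639-34640938 (plus strand) and chr19:34583279-34583578 (plus strand). Of 27025 promoters of this length 943 hold such a match (3.49%). A promoter was at hand for 9 of the 10 type I interferon genes that fell, and 4 of these 9 held a match. All 5 of the called GTPase genes with a promoter held a match.
Rsad2: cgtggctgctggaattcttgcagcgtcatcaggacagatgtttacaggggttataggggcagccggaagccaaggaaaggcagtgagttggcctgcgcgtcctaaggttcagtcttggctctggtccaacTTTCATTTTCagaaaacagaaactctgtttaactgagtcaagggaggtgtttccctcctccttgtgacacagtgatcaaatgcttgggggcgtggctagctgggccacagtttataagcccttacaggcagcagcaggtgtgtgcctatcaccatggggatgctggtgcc
Ifit1: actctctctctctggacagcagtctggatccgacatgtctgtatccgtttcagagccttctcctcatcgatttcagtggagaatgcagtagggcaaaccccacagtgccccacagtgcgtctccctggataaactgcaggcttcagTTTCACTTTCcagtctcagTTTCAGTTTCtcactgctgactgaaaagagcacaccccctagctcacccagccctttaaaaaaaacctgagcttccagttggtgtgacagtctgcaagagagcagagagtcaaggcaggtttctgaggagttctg
Ifit3: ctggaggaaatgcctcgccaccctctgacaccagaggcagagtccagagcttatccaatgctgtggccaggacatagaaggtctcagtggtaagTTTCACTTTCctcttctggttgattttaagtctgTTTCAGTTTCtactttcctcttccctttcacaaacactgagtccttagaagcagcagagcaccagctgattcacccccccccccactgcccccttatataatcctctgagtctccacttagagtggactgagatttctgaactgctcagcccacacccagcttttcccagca

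Genes of vessel growth and permeability gave single changes in endothelial-like cells. Angpt2, which loosens the contact between endothelial and supporting cells, stood at 10.7, 14.0, 40.9 and 32.5 CPM in the control mice and 104, 55.3, 98.1 and 110.0 CPM in the expanded mice, with no overlap (log2 change of 1.73 with an SE of 0.31 by edgeR, adjusted p = 0.00417), and was the 1 of 10 angiogenesis genes that rose. Ackr1, a chemokine receptor of venules, fell from 378 to 114 CPM and was the 1 of 11 adhesion genes that fell. Timp1 rose from 24.5 to 149 CPM, Car2, a carbonic anhydrase gene, from 5.89 to 54.0 CPM, and Inhbb, an activin subunit gene, from 31.3 to 139 CPM. Of 12 heat shock genes 7 fell and of 12 genes known to respond to tissue digestion 3 fell. Fibroblast markers in the endothelial-like sums ran from 958 to 3542 CPM in CTRL and from 46.8 to 843 CPM in EXP, and 0 of the 5 tested passed. The number of called genes was 199 without CTRL mouse 1, 222 without CTRL mouse 2, 145 without CTRL mouse 4 and 188 without EXP mouse 1, and 72 in thinned cells.

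In dendritic-like cells, 476 of 7768 genes were called (6.13%), 201 higher (2.59%) and 275 lower (3.54%) in EXP. Ranges without overlap were found for 22.9% of the genes. EXP mouse 1 had fewer than 20 such cells and was left out. Fcrls, an Fc receptor-like gene of resident myeloid cells, stood at 372, 389, 331 and 266 CPM in the control mice and 46.0, 59.8 and 24.2 CPM in the expanded mice, with no overlap (log2 change of -2.94 with an SE of 0.25 by edgeR, adjusted p = 0.00042). Fabp5 stood at 264, 396, 239.7 and 215 CPM in the control mice and 2483, 1038 and 1076 CPM in the expanded mice (log2 change of 2.46 with an SE of 0.38 by edgeR, adjusted p = 0.0222), a call that ended without CTRL mouse 1, 3 or 4. Pgf, a growth factor of the VEGF family, rose from 89.3 to 367 CPM, and the scavenger receptor gene Msr1 had a log2 fold change of 1.92. Of 10 genes of MHC class II presentation Cd74 and H2-Ab1 fell, with log2 fold changes of -0.71 and -0.54, and 0 rose.

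Wnt11, Hepacam2, Ccl9, Clec4g and Fn1 were the other named genes that fell in dendritic-like cells, with log2 fold changes from -2.30 to -2.08. Of 14 genes of dendritic cell states 1 fell, the lectin gene Cd209a, from 570.0 to 243 CPM, and 0 rose. Markers of macrophages and monocytes summed to between 8881 and 10195 CPM in CTRL and between 3941 and 7707 CPM in EXP dendritic-like cells, with 2 of 9 called higher and 1 lower. Fibroblast markers summed to between 2677 and 4217 CPM in CTRL and to 880, 5505 and 5523 CPM in EXP mice 2 to 4, with 0 of 8 called. Basal keratinocyte markers ran from 46.2 to 208 CPM in CTRL and stood at 35.0, 741 and 24.2 CPM in EXP mice 2 to 4. The part of these in the differences was not tested. Without cluster 33 the number of called genes was 639, and of 20 named genes 19 kept their call, Fn1, Fabp5 and Fcrls among them. The number was 200 without CTRL mouse 1, 218 without CTRL mouse 2, 182 without CTRL mouse 4, 255 without EXP mouse 3 and 171 without EXP mouse 4, and 119 in thinned cells.

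In basal keratinocyte-like cells, 295 of 6341 genes were called (4.65%), 110 higher (1.73%) and 185 lower (2.92%) in EXP. CTRL mouse 2 and EXP mouse 1 had too few cells, which left 3 mice against 3. Between so few mice, 26.5% of the genes had ranges that did not overlap. The tested cells held less of cluster 6 than the whole libraries. In CTRL mice 1, 3 and 4 there were 5, 12 and 15 cells of cluster 6 and 17, 35 and 32 of cluster 9. EXP mice 2, 3 and 4 had 5, 17 and 26 cells of cluster 6 and 27, 26 and 66 of cluster 9. Serpinb3b, a protease inhibitor gene of the epidermis, had 0 counts in the CTRL mice and 76.8, 28.1 and 54.3 CPM in the EXP mice, at least 21.5-fold higher when set against 3 counts over the group. Near-identical copies of this gene exist, so its counts are uncertain. Idi1, which also rose in fibroblast-like cells, stood at 25.2, 38.1 and 45.3 CPM in the control mice and 139, 144 and 156 CPM in the expanded mice, with no overlap (log2 change of 1.97 with an SE of 0.23 by edgeR, adjusted p = 0.000274). Nrg1, a ligand of ERBB receptors, rose from 64.1 to 173 CPM (log2 change of 1.42 with an SE of 0.21 by edgeR, adjusted p = 0.00129). The replication gene Mcm3 rose from 16.6 to 51.5 CPM.

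The genes that anchor the basal layer fell in part, 4 of 12 tested lower and 0 higher. They were Lama3 and Lamb3, chains of laminin 332, with log2 fold changes of -1.02 and -0.94, and Itga6 and Col17a1, parts of the hemidesmosome, with -0.78 and -0.68. The Lama3 call ended without CTRL mouse 3 or 4 or EXP mouse 2 or 4. Of 6 wound keratin genes and 9 differentiation genes 0 were called in either direction. Parp14 fell from 52.9 to 8.44 CPM. Plet1, a surface protein of hair follicle cells, went from 1428 ± 689.9 to 454 ± 74.2 CPM (SD, n = 3 each, log2 change of -1.65 with an SE of 0.31 by edgeR, adjusted p = 0.0265), a call that ended without EXP mouse 2, 3 or 4.

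Fibroblast markers in the basal keratinocyte-like sums ran from 616 to 1161 CPM in CTRL and from 38.3 to 232 CPM in EXP mice, with 1 of 5 called lower, and their part in the differences was not tested. The count of called genes depended on each mouse. It was 148 without CTRL mouse 1, 145 without CTRL mouse 3, 44 without CTRL mouse 4, 76 without EXP mouse 2, 630 without EXP mouse 3 and 45 without EXP mouse 4. DESeq2 called 154 and the fit on basal keratinocyte-like cells thinned to 2000 UMIs called 18.

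**Figure D4:**
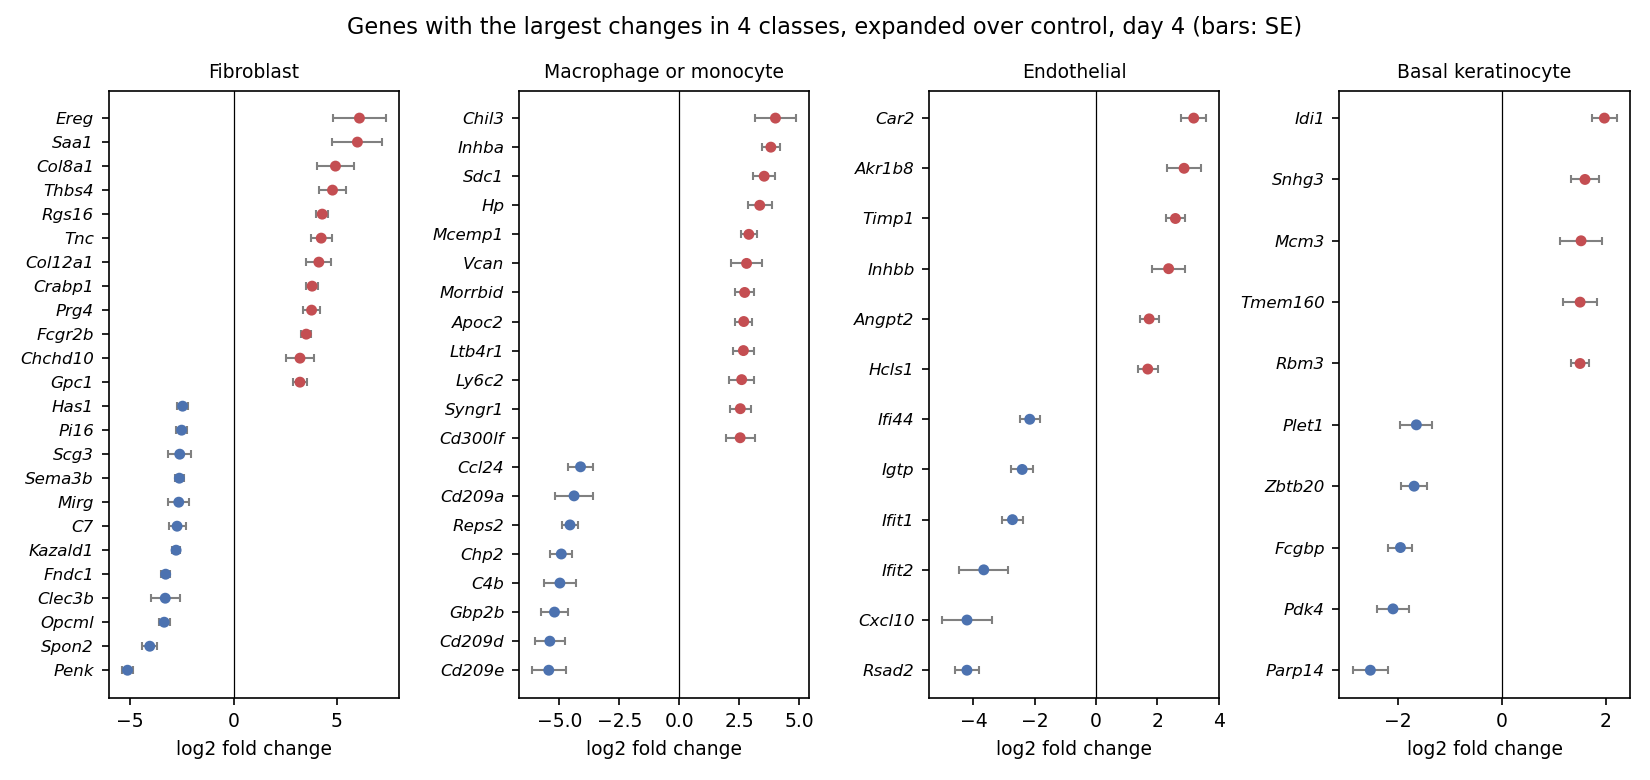
log2 fold change of EXP over CTRL with its standard error for genes named by rank in fibroblast-like (4 against 3 mice), macrophage or monocyte-like and endothelial-like (4 against 4) and basal keratinocyte-like cells (3 against 3); red points rose and blue points fell. Genes with 3 or fewer counts in either arm are left out, and the axes differ between panels.

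Rbm3 moved the same way in every class tested. It was called higher in 6 of 6 classes, with log2 fold changes from 1.19 to 1.61. It rose in macrophage or monocyte-like cells from 435 to 1326 CPM, in endothelial-like cells from 357 to 1097 CPM and in basal keratinocyte-like cells from 584 to 1655 CPM. H2-K1 was lower in all 6 classes and called in 5, with log2 fold changes from -1.48 to -0.72. The exception was T cell-like cells, where it did not pass (edgeR, adjusted p = 0.199). Timp1 was higher in the 4 classes where it could be tested and called in 3. Classes of 1 arm share a reaction, so they are not independent replicates of such a pattern.

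**Figure D5:**
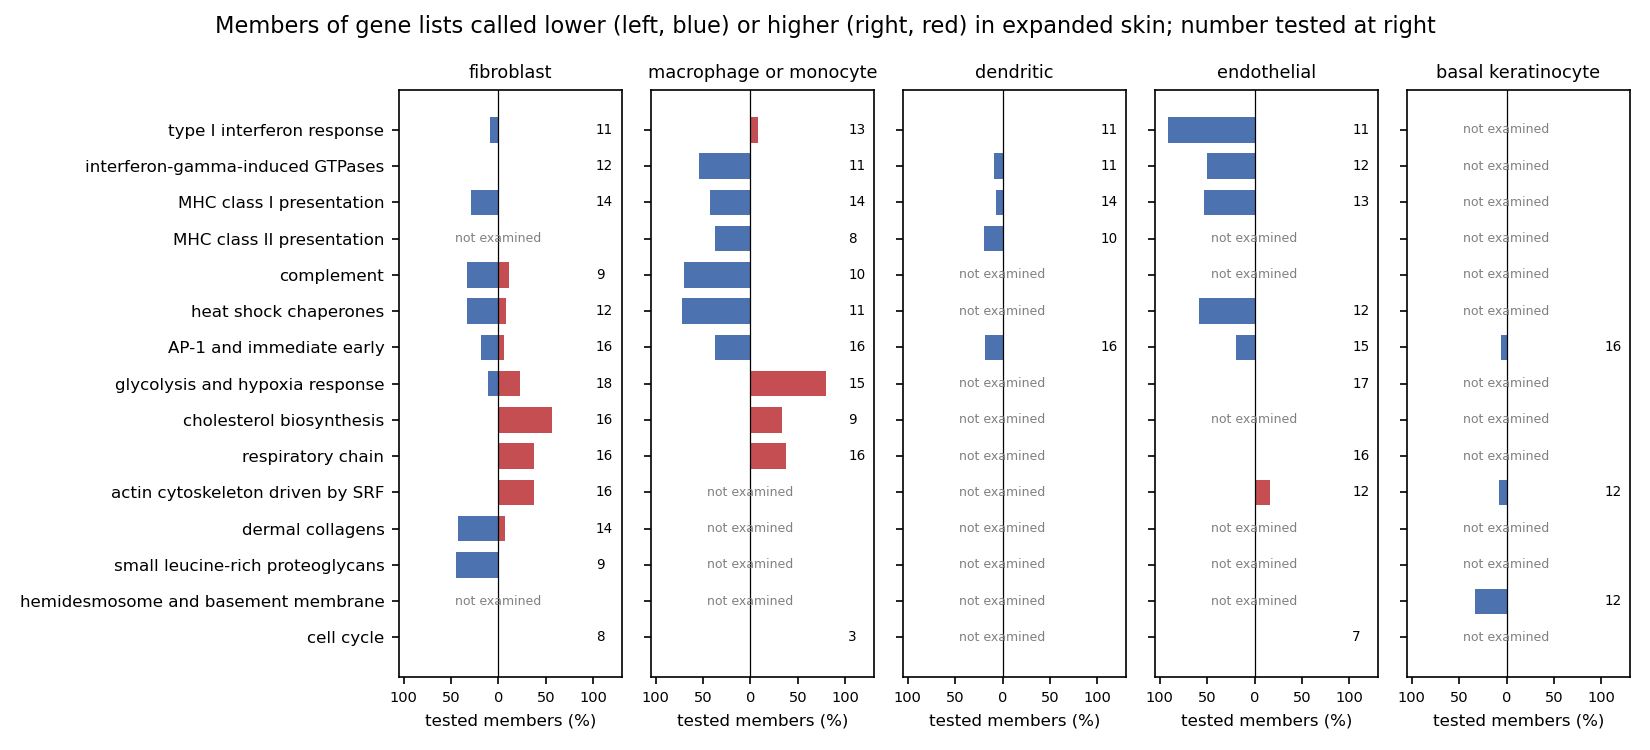
Percent of the tested members of 15 gene lists that were called lower (blue, to the left) or higher (red, to the right) in EXP, in 5 classes; the number at the right of each bar is how many members were tested. Type I interferon genes were called lower in endothelial-like cells (10 of 11). Genes of glycolysis and hypoxia response were called higher in macrophage or monocyte-like cells (12 of 15) and cholesterol genes higher in fibroblast-like cells (9 of 16).

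Dividing cells were counted after thinning every cell to 2000 UMIs, as cells with at least 2 UMIs from at least 2 cell cycle genes. In dendritic-like cells their share averaged 14.3 ± 1.05% in CTRL and 18.6 ± 3.74% in EXP mice (SD, n = 4 and 3, p = 0.0286 by exact permutation and 0.171 when adjusted over 6 classes). Part of these were the cells of cluster 33, most of them without Ptprc, and without that cluster the means were 6.83 ± 1.41% and 9.25 ± 3.18% (SD, n = 4 and 3, p = 0.257 by exact permutation and 0.429 when adjusted). Basal keratinocyte-like cells averaged 11.8 ± 2.53% and 24.3 ± 8.91% (SD, n = 3 each, p = 0.1 by exact permutation, the lowest that 3 mice against 3 can give, adjusted p = 0.3). Cells with fewer UMIs were left out, 21 CTRL and 1 EXP dendritic-like cells and 5 CTRL and 6 EXP basal keratinocyte-like cells. Without thinning the means were 32.9% and 56.3% in dendritic-like and 48.2% and 71.1% in basal keratinocyte-like cells, and the EXP cells were deeper in both classes. In neutrophil-like cells, which do not divide, the same count gave 0.81% as a background. None of the 6 classes passed by the exact permutation test after adjustment, and 1 had an unadjusted p under 0.05.

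Neutrophil-like cells were numerous enough only in EXP mice 1, 2 and 4, so their genes are given without a comparison. Cxcl2 averaged 73648 ± 15018 CPM, S100a9, a subunit of the calprotectin complex, 55162 ± 11285 CPM, and the inflammatory cytokine gene Il1b 18657 ± 949.7 CPM (SD, n = 3). Cxcr2, the receptor through which CXC chemokines draw neutrophils, averaged 520.0 ± 96.8 CPM (SD, n = 3). The CTRL library held 20 such cells in all.

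Classes with too few cells in single mice were described from the whole libraries, 1 per arm, with no test. The intervals cover counting error only. In dermal papilla-like cells 60 of 3576 genes differed at least 4-fold (1.68%). Mmp3, a protease that cuts many matrix proteins, had 88 counts in CTRL and 6974 in EXP, which is 81.8-fold higher on the CPM scale (66.3 to 102). In EXP 59 of 324 cells carried it, and 1 cell held 12.8% of the counts. Hp, the haemoglobin-binding protein gene, was 20.6-fold higher (15.6 to 27.9) and Chchd10, a mitochondrial protein gene, 16.7-fold higher (11.4 to 25.7). Hp was found in 73 EXP cells and Chchd10 in 91. Vcan, a proteoglycan typical of active dermal papillae, was 10.2-fold lower (8.60 to 12.3) and Col15a1 18.4-fold lower (11.4 to 31.3).

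In smooth muscle-like cells 137 of 3523 genes differed at least 4-fold (3.89%). Il11, a cytokine of the interleukin 6 family, had 4 counts in CTRL and 318 in EXP, and in EXP 22 cells carried it. Pln, the phospholamban gene of contractile cells, had 474 and 14 counts, 21.9-fold lower (12.9 to 40.4). This class is cluster 14, led by Rgs5, a pericyte marker, ahead of Myh11 and Acta2. Its markers Myh11 (2191 to 597 CPM), Lmod1 (430 to 101 CPM), Cnn1, Acta2, Tagln, Actg2 and Synpo2 were lower in EXP. The marker Des was higher (758 to 1351 CPM). Whether the mixture of cells in the class differed between the arms was not tested. In Schwann-like cells 90 of 3837 genes differed at least 4-fold (2.35%). Gap43, a growth cone protein of repairing nerves, was 7.10-fold higher there (5.01 to 10.3). In lymphatic endothelial-like cells 77 of 3555 genes did so (2.17%), and Ctla2a, a protease inhibitor gene, was 6.08-fold higher (5.27 to 7.04). Trpm1, a melanocyte channel gene, was 5.21-fold lower in melanocyte-like cells (3.68 to 7.56), where 49 of 3479 genes passed the fold (1.41%). Mpeg1, a pore-forming protein gene of phagocytes, was 18.8-fold lower in Langerhans-like cells (12.9 to 28.5), where 193 of 3061 genes passed (6.31%). The arms held different mixtures there. At finer clustering cluster 40, led by Cd207, Xcr1 and Wdfy4, held 70.4% of the CTRL and 13.6% of the EXP cells, and cluster 41, led by Ccl22, Ccr7 and Il12b, 29.6% and 86.4%. Mpeg1 stood at 737.5 CPM in CTRL and 125 CPM in EXP within cluster 40 (9 EXP cells) and at 96.7 and 18.3 CPM within cluster 41.

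The difference between the arms in macrophage or monocyte-like cells was also set against that on day 2. By an interaction term in edgeR, 1 of 8329 genes was called (0.012%), Gm10076. The day 4 difference minus the day 2 difference was -1.57 on the log2 scale (edgeR, adjusted p = 0.000934). A gene that was not called is not thereby shown to be the same on both days. The 2 days were separate mice and separate reactions.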

How the data were processed

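The files used hold raw UMI counts per gene and per hashtag for each cell barcode, as the authors deposited them. Per the submitters' processing notes these counts came from Cell Ranger 6.1.2 with mm10. Barcodes with under 200 genes, under 500 UMIs or over 10% mitochondrial UMIs were dropped. Doublets were removed by hashtag (Seurat 5.3.0 HTODemux, 0.99 quantile) and by Scrublet, which called 2.42% of CTRL and only 0.0584% of EXP barcodes, so in EXP it cannot be taken to have worked. All 10 libraries were clustered together (scanpy 1.11.5, Leiden resolution 1, 38 clusters) and clusters were named from marker lists. Counts were summed per class and mouse where a mouse had at least 20 cells and an arm at least 3 such mice. They were tested with edgeR 4.0.16 (TMM, quasi-likelihood, low-count filter, Benjamini-Hochberg threshold 0.05) in R 4.3.3, after a check on simulated data. Shares were tested by two-sided exact permutation over mice (scipy 1.17.1), with no pairing of mice. DESeq2 1.42.0 was an alternative. Genes named by rank were called, did not overlap between arms, averaged at least 50 CPM in an arm and stood at 0.1 or more of their highest class. Up to 12 each way were named in fibroblast-like and macrophage or monocyte-like cells and 6 elsewhere, plus up to 4 for each of 51 gene lists. Members and lists were chosen with earlier results of these data known. Names and coordinates come from GENCODE M21 (GRCm38), promoters from RefSeq. Intervals are exact at 95% and cover counting error only. Some results that the naming rule selects are not reported here.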

Additional observations from a re-analysis of the deposited data

Results flagged for a closer look

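In groups of 4 mice, a mouse was singled out when its gap to the nearest other mouse was unusually large against the range of its group. This occurred in 16 of 157 groups, and chance gives about 1 in 20. Of these, 2 concern shares of cells. CTRL mouse 1 had 2.26% neutrophil-like cells among its immune cells, against 0.249% to 0.542% in the other CTRL mice. EXP mouse 1 had 7.55% smooth muscle-like cells among its non-immune cells, against 2.07% to 2.96% in the other EXP mice. The share of dividing macrophage or monocyte-like cells was 1.01% in 1 CTRL mouse and between 3.32% and 3.57% in the others.

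In macrophage or monocyte-like cells, Cd209f stood at 582 CPM in 1 CTRL mouse and at 238 to 286 CPM in the others, and Cd209e at 140.8 CPM against 54.1 to 62.0 CPM. Among the EXP mice, Cd209e reached 6.86 CPM in 1 mouse and at most 0.622 CPM in the others, and Cd209b was at 3.13 CPM in 1 mouse and 0 in the rest. Atp1b1, a subunit of the sodium pump, was at 29.2 CPM in 1 CTRL mouse against 67.9 to 75 CPM in the others, and at 0.75 CPM in 1 EXP mouse against 0. Sdc1 was at 20.1 CPM in 1 CTRL mouse against 1.95 to 3.77 CPM. Ly6c2 was at 450.1 CPM in 1 EXP mouse against 172 to 215 CPM, and Vcan at 475 CPM in 1 EXP mouse against 406 to 413 CPM.

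In other classes, Inhbb in endothelial-like cells stood at 60.8 CPM in 1 CTRL mouse against 18.8 to 24 CPM, and at 269.9 CPM in 1 EXP mouse against 79.2 to 108 CPM. Prnp in dendritic-like cells was at 53.5 CPM in 1 CTRL mouse against 26.9 to 31.1 CPM. Kcnn4 in T cell-like cells was at 22.2 CPM in 1 EXP mouse against 13.5 to 14.4 CPM.

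The 1 gene whose difference between the arms in macrophage or monocyte-like cells differed between day 4 and day 2, by an interaction test, was Gm10076, a gene model of no assigned function (log2 difference -1.57 by edgeR, adjusted p = 0.000934). Without the low-count filter 9 genes were called. Fibroblast-like cells were not set against day 2, as too few mice had enough of them.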

How the results depend on the processing

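Shares of classes rested on few mice: the difference in the macrophage or monocyte-like share, 1.76 percentage points, became -3.34 at clustering resolution 2 and ran from -3.10 to 6.22 when each mouse was left out in turn. That in the Langerhans-like share ran from -0.399 to 0.752 when each mouse was left out, with -0.170 without CTRL mouse 4. That in the mast cell-like share became 0.0248 when the day 4 libraries were clustered alone. The edgeR test on cell numbers passed 8 of 17 classes, with log2 values of 4.33 for neutrophil-like, -2.36 for fibroblast-like, 2.90 for dermal papilla-like, 1.97 for basal keratinocyte-like, 1.51 for lymphatic endothelial-like and -1.69 for dendritic-like cells.

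Counts of called genes moved by over 1.5 times as follows. DESeq2 called 30 in T cell-like and 154 in basal keratinocyte-like cells. Without the low-count filter the counts were 69 in T cell-like, 597 in basal keratinocyte-like, 1024 in dendritic-like and 608 in endothelial-like cells, and 9 for day 4 against day 2. In cells thinned to 2000 UMIs they were 18 in basal keratinocyte-like, 119 in dendritic-like, 72 in endothelial-like, 340 in fibroblast-like and 808 in macrophage or monocyte-like cells. Leaving out each mouse in turn gave 3 to 12 in T cell-like, 44 to 630 in basal keratinocyte-like, 171 to 618 in dendritic-like, 145 to 341 in endothelial-like, and 944 to 1283 in fibroblast-like cells. For day 4 against day 2 it gave 1 to 2. At a 2-fold in place of a 4-fold limit the described classes had 719 (Langerhans-like), 348 (Schwann-like), 330 (dermal papilla-like), 518 (lymphatic endothelial-like), 327 (melanocyte-like) and 649 (smooth muscle-like) genes. The cause of these shifts was not tested, beyond fewer genes or mice entering some fits.

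The share of higher calls was 36.4% in T cell-like cells and 47.8% without the filter, 37.3% in basal keratinocyte-like cells and 53.4% without the filter or 27.3% with DESeq2, and 37.5% in endothelial-like cells and 23.6% when thinned. Another scaling (relative log expression) moved no split by over 10 points. Mouse numbers did not pair the arms: same-numbered mice correlated between -0.150 and 0.0875. With the mouse number as a replicate block the count was 6 in T cell-like, 116 in dendritic-like, 866 in fibroblast-like and 25 in basal keratinocyte-like cells, the last from the 2 numbers kept in both arms, which leave 1 residual degree of freedom.

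Without thinning 5 classes passed for dividing cells, and the T cell-like cycling share differed by 16.1 percentage points. Leaving out each mouse gave -4.16 to 1.95, with a turned sign without CTRL mouse 1 (0.865), CTRL mouse 3 (1.95), EXP mouse 1 (0.280) or EXP mouse 3 (0.390). With at least 3 UMIs required the difference in the macrophage or monocyte-like cycling share was -0.156. That in the fibroblast-like cycling share ran from -0.674 without EXP mouse 2 to 3.03. Fosl2 in dendritic-like cells became 0.046 on the log2 scale when thinned. Of the named genes measured, 278 of 283 kept their call with the other scaling, 265 of 276 with DESeq2, 261 of 283 without the filter, 270 of 281 with the other hashtag rule, 225 of 279 with the replicate block and 156 of 208 when thinned. Leaving out a mouse kept between 217 of 279 (without CTRL mouse 4) and 246 of 281 (without EXP mouse 3). When thinned 1 turned its sign, Fosl2 as given.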

Other observations

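Among the unnamed clusters, 1 was led by Tnc, Cxcl5, Mmp3, Saa3 and Il11 and held 54 CTRL and 82 EXP cells, 6.71% and 19.2% of the unnamed cells of each library. The cluster led by Ctla4 and Foxp3, genes of regulatory T cells, held 97 CTRL and 58 EXP cells.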
